A study of Mus musculus with 20 samples.

Results

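The cell composition of mouse kidneys was compared 14 d after long and after short bilateral ischemia. The comparison took in 4 of the 18 libraries of the annotation, 2 per group, and each cluster was counted per library as a share of the immune or of the non-immune cells. Libraries were assigned by the group and day recorded for their cells, and they are named here by their barcode prefixes: IRF8 and IRF10 were IRI short at day 14, and IRF9 and IRF12 were IRI long at day 14. Together they held 29714 of 113579 annotated cells, of which 18570 lay in the 8 immune clusters and 11144 in the 10 non-immune clusters. IRF8 held 4518 cells, IRF10 10917, IRF9 7229 and IRF12 7050. No gene counts were used, so the cluster names are the authors' and were not checked against marker genes.

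All animals were male C57BL/6 mice of 10 to 12 weeks. Both renal pedicles were clamped under isoflurane at a controlled body temperature, for 23 min in IRI short (moderate injury) and for 30 min in IRI long (severe injury), and buprenorphine SR at 0.1 mg/kg was given after release of the clips. Per the study's methods each library came from 1 mouse, so n = 2 mice per group, and whole kidneys were dissociated, strained and freed of red cells before droplet single-cell RNA-seq (scRNA-seq). The 8 libraries of days 1 and 3 and the 6 control libraries served as background. A share is relative: a higher share of one cluster lowers the shares of the others in its compartment, and cell losses during dissociation cannot be told apart from changes in the tissue.

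Ischemia-reperfusion injury hits the proximal tubule (PT) first, above all its straight S3 segment in the outer medulla, whose cells depend on oxidative metabolism. Neutrophils enter the kidney early, monocytes and macrophages follow, and lymphocytes accumulate later. After mild injury surviving tubule cells replace the lost epithelium, whereas after severe injury inflammation can persist and scar tissue can form. The question behind the comparison was how far kidneys after short and long ischemia differed at a time when repair and fibrosis part ways.

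Immune cells made up 57.4% of the cells in IRF8 and 42.0% in IRF10, against 79.0% in IRF9 and 80.6% in IRF12. Exact 95% binomial intervals, which cover counting error only, ran from 41.0% to 58.9% over the IRI short libraries and from 78.1% to 81.5% over the IRI long libraries. The groups did not overlap, and the IRI long libraries agreed more closely with each other than the IRI short ones. The 6 controls ranged from 6.11% to 17.8%. The odds of being an immune cell were 4.00 times higher after long ischemia (difference in natural log odds 1.39 ± 0.43 SE, unadjusted p = 0.00621, limma adjusted p = 0.106 over 17 splits). In the quasi-binomial model the adjusted p was 0.00555, and in limma without the control libraries it was 0.0102.

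For the shares within compartments, limma on the log odds of all 18 libraries passed none of the 18 clusters at an adjusted p under 0.05 (0%), and 2 clusters, Granul_2 and Podo, at an unadjusted p under 0.05 (11.1%). The quasi-binomial model, fitted cluster by cluster, passed 3 (Granul_2, Macro and T cell_2) after adjustment and 5 before it. Of the 17 nested splits, in which related cell types are set against each other, limma passed none after adjustment (0%) and 1 before it, that between immune and non-immune cells (5.88%). The quasi-binomial model passed 4 splits after adjustment and 5 before it. The groups did not overlap in 13 of 18 clusters: the IRI long values were the higher pair in 4 (22.2%) and the lower pair in 9 (50%). For the splits these counts were 7 (41.2%) and 3 (17.6%) of 17. With 2 libraries against 2, an exact two-sided permutation test cannot go below p = 0.333 and was not used.

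**Figure D1:**
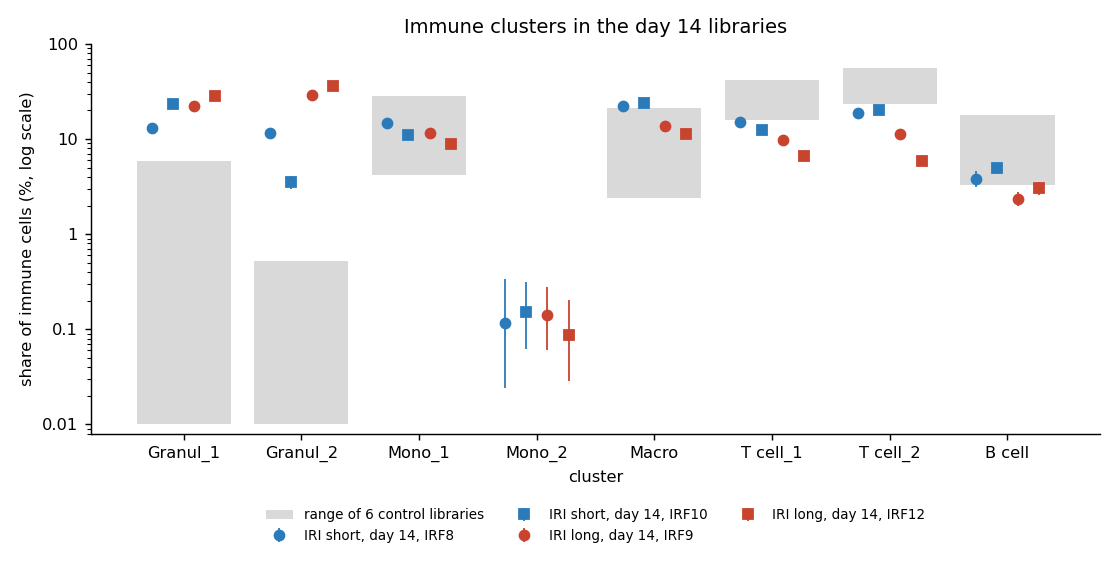
Share of immune cells (%, log scale) in each of the 8 immune clusters for the 4 day 14 libraries, with exact 95% binomial intervals as bars and the range of the 6 control libraries in grey (a control value of 0 is drawn at 0.01%, so Mono_2 shows no band). Both IRI long libraries sit above both IRI short libraries in Granul_2, and below them in Macro and the 3 lymphocyte clusters.

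Granulocytes, mostly neutrophils in injured kidney, were named as 2 clusters. Granul_2 took 11.7% of the immune cells in IRF8 and 3.51% in IRF10, against 28.9% in IRF9 and 35.9% in IRF12. The mean share was 32.4% ± 4.9 (SD, n = 2) after long and 7.61% ± 5.80 (SD, n = 2) after short ischemia, 4.25 times higher, and the lowest IRI long value lay 17.2 percentage points above the highest IRI short value. The controls stayed at or below 0.521%. The log odds differed by 1.92 ± 0.59 SE (limma adjusted p = 0.0699), the largest difference of the 18 clusters. The call rested on the choice of test and on single libraries: the quasi-binomial adjusted p was 0.000134, the limma adjusted p was 0.00420 in the 12 IRI libraries alone and 0.0284 without IRF8, and it was 0.494 without IRF10, where the difference was 1.28.

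Granul_1 did not separate the groups. Its share of immune cells was 13.1% in IRF8, 23.5% in IRF10, 22.1% in IRF9 and 28.3% in IRF12, so that IRF9 lay below IRF10. Within the granulocytes, Granul_2 made up 47.1% in IRF8 and 13.0% in IRF10, against 56.7% in IRF9 and 55.9% in IRF12. The IRI long libraries were close to each other, whereas the IRI short libraries were far apart. The difference was 1.26 ± 1.12 SE (limma adjusted p = 0.603), fitted on 16 libraries because 2 controls held no granulocytes. Without IRF10 it was 0.37.

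Granulocytes of both clusters were 39.9% and 43.3% of the myeloid cells in IRF8 and IRF10, and 66.7% and 75.9% in IRF9 and IRF12. The groups were well apart, by 23.4 percentage points at the closest. The difference was 1.26 ± 1.01 SE with a limma adjusted p of 0.566, 0.0102 in the 12 IRI libraries alone and 0.000271 in the quasi-binomial model. The share of myeloid among all immune cells was 62.2% in IRF8 and 62.3% in IRF10, against 76.6% in IRF9 and 84.5% in IRF12 (limma adjusted p = 0.458, quasi-binomial adjusted p = 0.0141). With T cell_2 left out the groups lay closer: 76.6% in IRF8 and 78.2% in IRF10, against 86.4% in IRF9 and 89.7% in IRF12.

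Macrophages, which clear dead cells and take part in both repair and scarring, held a smaller share of the immune cells after long ischemia. The granulocytes were counted among these immune cells, and shares without them were not computed. A loss of macrophages cannot be read from this share. Macro was 22.4% in IRF8 and 24.2% in IRF10, against 13.8% in IRF9 and 11.4% in IRF12. The IRI short values lay 1.85 times above the IRI long values on average, with no overlap. The log odds differed by -0.75 ± 0.58 SE (limma adjusted p = 0.382, quasi-binomial adjusted p = 0.00967). As a share of macrophages and monocytes together, Macro was 59.9% and 68.3% in the IRI short libraries and 53.9% and 56.3% in the IRI long libraries, a smaller gap of 3.57 percentage points.

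Monocytes, the blood precursors of many tissue macrophages, overlapped between the groups by the deposited names. Mono_1 was 14.9% in IRF8, 11.0% in IRF10, 11.6% in IRF9 and 8.79% in IRF12. Mono_2 counted 3 and 7 cells in the IRI short libraries and 8 and 5 cells in the IRI long libraries, so its share could not be compared at this depth. At day 1 it had averaged 2.99% of immune cells after short ischemia.

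Each of the 3 lymphocyte clusters took a lower share of the immune cells in both IRI long libraries than in either IRI short library. The granulocytes, higher after long ischemia, were counted in these shares too. Shares without them were not computed, so a loss of lymphocytes cannot be read from these values. T cell_1 was 15.2% in IRF8 and 12.4% in IRF10, against 9.71% in IRF9 and 6.64% in IRF12, with a difference of -0.60 ± 0.47 SE (limma adjusted p = 0.382). T cell_2 was 18.8% and 20.3% against 11.3% and 5.88%, the largest difference downward among the clusters, -0.999 ± 0.478 SE (limma adjusted p = 0.301, quasi-binomial adjusted p = 0.0494). The B cell cluster was 3.82% and 4.93% against 2.36% and 3.03%. Every one of these shares was below the control median, and T cell_1 and T cell_2 lay below the whole control range in all 4 libraries.

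The name of T cell_2 was not stable. A second annotation by the authors covered all 29714 cells of these libraries and 2 inhibitor-treated libraries. It named 38.6% and 29.1% of the T cell_2 cells of IRF8 and IRF10 T cells, and 42.9% and 53.9% of those of IRF9 and IRF12. Most of the others were named PT there: 41.5% and 52.7% in the IRI short libraries, and 37.3% and 30.8% in the IRI long libraries. Counting only cells whose class was the same in both annotations (PT, other epithelial, endothelial or stromal, myeloid or lymphoid), an alternative chosen after seeing the data, T cell_2 made up 34.0% of the T cells in IRF8, 34.3% in IRF10, 36.1% in IRF9 and 34.1% in IRF12. By the deposited names alone it had been 55.3% and 62.1% against 53.9% and 47.0%. In the same cells the lymphoid clusters held lower shares of immune cells after long ischemia. T cell_1 was at 15.5% ± 1.9 against 8.27% ± 2.44 and T cell_2 at 8.01% ± 0.93 against 4.52% ± 1.59 (SD, n = 2 each). The granulocytes were counted in these shares as well, so a loss of lymphocytes cannot be read from them either.

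The T cell_1 cluster also held cells with natural killer names. The second annotation called 21.6% and 21.7% of it NK in the IRI short libraries, and 17.5% and 20.2% in the IRI long libraries. Mono_1 went almost whole to a cluster named Fibro in the second annotation, 93.0% and 95.8% of its cells in the IRI short and 92.2% and 93.2% in the IRI long libraries. Fibro was therefore counted as myeloid when the annotations were matched. Among cells of the same class in both annotations, Mono_1 was lower after long ischemia without overlap. It was 16.5% and 12.8% of the immune cells in IRF8 and IRF10, against 12.2% and 8.99% in IRF9 and IRF12. The closest values lay 0.576 percentage points apart. The granulocytes were counted in these shares of immune cells too, so a loss of monocytes cannot be read from them. Within macrophages and monocytes of the same class, Macro was 60.2% and 68.3% in IRF8 and IRF10, against 53.7% and 56.3% in IRF9 and IRF12. The monocyte part of these cells was thus higher, not lower, after long ischemia. Granul_2 kept its identity: 98.8% to 99.4% of its cells were named Neutro_2 in each of the 4 libraries.

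**Figure D2:**
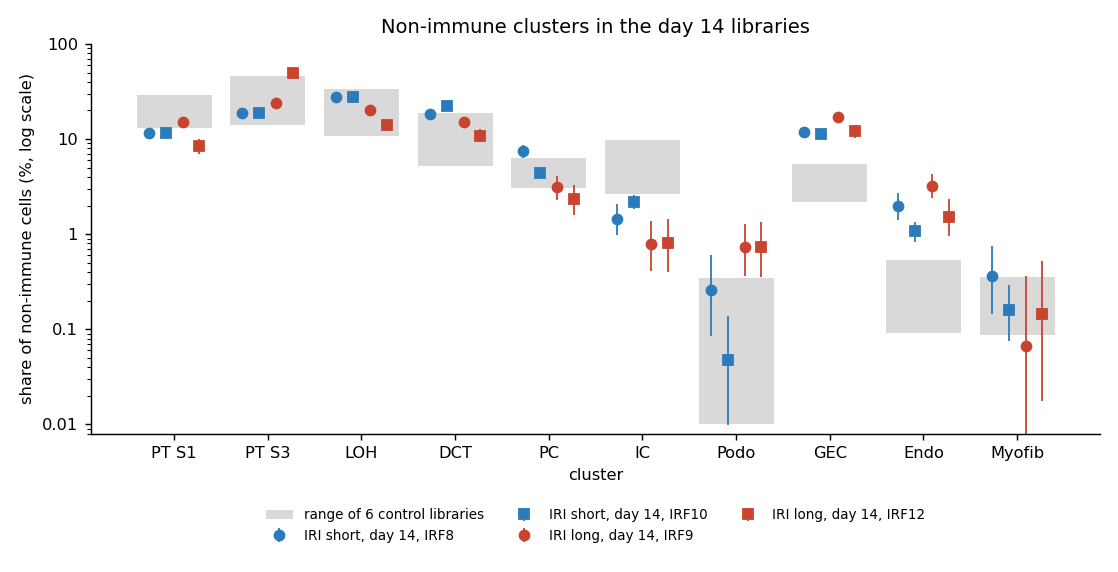
Share of non-immune cells (%, log scale) in each of the 10 non-immune clusters, drawn as for the immune clusters (the lowest control share of Podo, 0, is drawn at 0.01%, and the interval of Myofib in IRF9 runs below the axis). PT S3 of IRF12 stands at 49.1%, above the 3 other day 14 libraries and the control range, and LOH, DCT, PC and IC are lower in both IRI long libraries.

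In the non-immune compartment the largest shift in cell share was that of PT S3. It was 18.8% in IRF8 and 18.6% in IRF10, against 24.1% in IRF9 and 49.1% in IRF12. The IRI short libraries were nearly equal, whereas the IRI long libraries differed by more from each other than IRF9 did from the IRI short libraries. The mean was 18.7% ± 0.2 after short and 36.6% ± 17.7 after long ischemia (SD, n = 2 each), and the log odds differed by 0.88 ± 0.53 SE (limma adjusted p = 0.369). Without IRF12 the difference was 0.32, and without IRF9 it was 1.43. In PT S1, the first convoluted segment, the values were 11.6% and 11.6% against 15.2% and 8.39%, and the groups overlapped. PT S3 was 61.9%, 61.6% and 61.3% of the PT cells of IRF8, IRF10 and IRF9, and 85.4% of those of IRF12.

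Many PT S3 cells of the IRI long libraries had another name in the second annotation. It gave a PT name (PT, PCT or PST) to 94.5% of the PT S3 cells of IRF8 and 87.4% of those of IRF10, but to 64.8% in IRF9 and 13.1% in IRF12 (exact 95% interval 10.6% to 15.9%). It named 297 of 673 PT S3 cells of IRF12 neutrophils, 44.1%, of which 230 were Neutro_2 and 67 Neutro_1. In IRF9 it named 28 of 366 neutrophils, 7.65%, all of them Neutro_2. IRF8 had 0 of 362 such cells, with a limit of 0.829% set by a count of 0, and IRF10 had 1 of 1178. Neutrophil names stayed at or below 0.174% of PT S3 in the 8 libraries of days 1 and 3, and at or below 0.0878% in the controls. PT names ran from 21.2% to 95.8% of PT S3 in the same 8 libraries, a range that holds the value of IRF9 but not that of IRF12.

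A further 35.7% of the PT S3 cells of IRF12 and 22.7% of those of IRF9 were named DCT1, a distal convoluted tubule cluster, against 2.49% in IRF8 and 8.32% in IRF10. DCT1 names were not particular to day 14: they reached 47.6% of PT S3 in a library of IRI long at day 1. Among the other non-immune clusters with at least 20 cells in a library, neutrophil names reached 2.61% at most, 3 of 115 PT S1 cells of IRF12. In the UMAP of the first annotation, the cells of IRF12 with neutrophil names had PT S3 cells for 98.8% of their 30 nearest neighbours and granulocytes for 0%. For its PT S3 cells with PT or DCT1 names the PT S3 neighbours were 90.5% and 97.6%, with 0% granulocytes for both. The UMAP and the name PT S3 came from the same annotation, so the neighbours cannot tell which second name was right. Without gene counts, what these cells expressed was not tested.

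**Figure D3:**
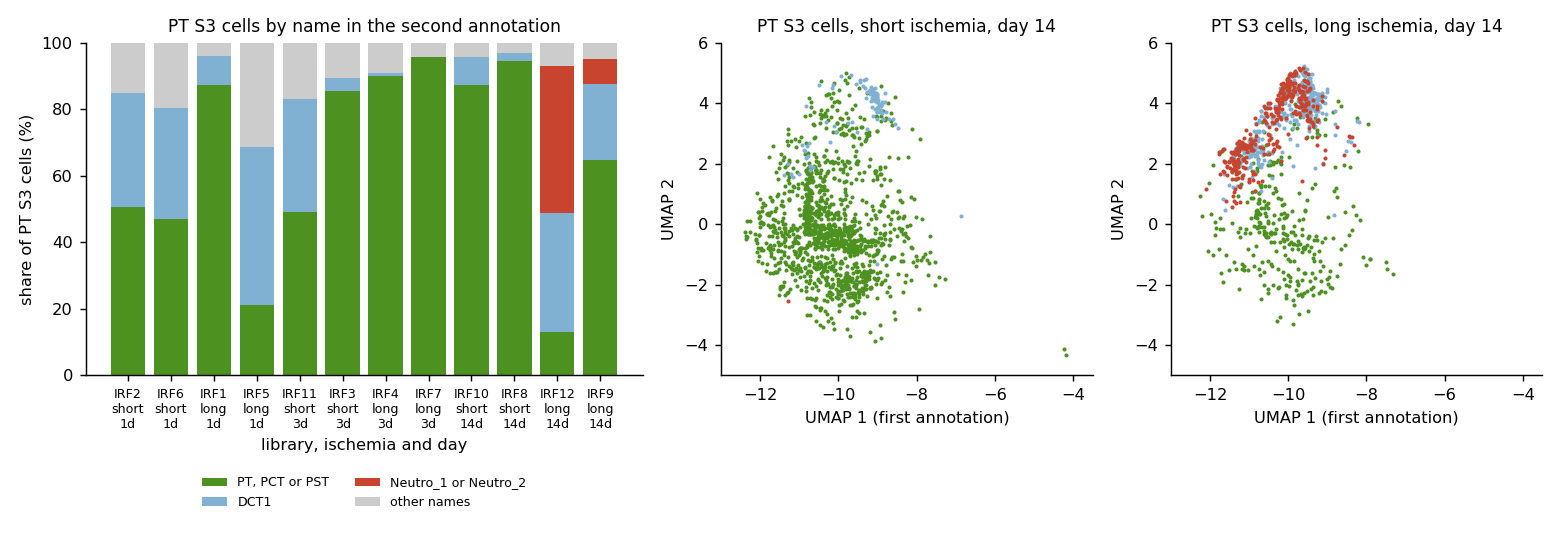
Left, PT S3 cells of the 12 IRI libraries by their name in the second annotation (% of the library's PT S3 cells, stacked). Right, UMAP coordinates (no unit) of the day 14 PT S3 cells for short and for long ischemia in the same colours, other names left out. Neutrophil names fill 44.1% of the bar of IRF12 and 7.65% of that of IRF9. They lie in the upper part of the cluster, as DCT1 names do. In IRF12 the median of UMAP 2 is 3.40 for neutrophil, 3.70 for DCT1 and 0.253 for PT names.

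The PT S3 difference depended on these cells. Restricted to cells of the same compartment in both annotations, it was 0.56 (limma adjusted p = 0.446). Among cells of the same class in both annotations, PT S3 was 18.5% of the non-immune cells in IRF8 and 17.3% in IRF10, against 17.9% in IRF9 and 12.2% in IRF12. The groups then overlapped, and the difference turned from 0.88 to -0.22 (limma adjusted p = 0.767). As a share of all cells of a library it was also negative, -0.31, beside the smaller non-immune compartment after long ischemia. PT against the distal tubule (LOH, DCT, PC and IC) kept its direction with a smaller gap: PT cells were 35.6% and 34.5% of the tubule in IRF8 and IRF10 and 50.0% and 67.2% in IRF9 and IRF12 by the deposited names (0.97 ± 0.54 SE, limma adjusted p = 0.393), and 34.9% and 33.4% against 45.4% and 35.2% among cells of the same class, where the difference was 0.26 (limma adjusted p = 0.964). In those cells PT S1 was higher in both IRI long libraries, 16.7% and 13.8% against 11.3% and 11.9%.

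The 4 tubule clusters beyond the proximal tubule each held lower shares of the non-immune cells in both IRI long libraries. LOH, the loop of Henle, was 27.9% and 28.0% in IRF8 and IRF10 against 20.4% and 14.0% in IRF9 and IRF12. DCT, the distal convoluted tubule, was 18.1% and 22.5% against 15.1% and 10.9%. PC, the principal cells that handle water and sodium in the collecting duct, were 7.44% and 4.45% against 3.10% and 2.34%, a difference of -0.78 ± 0.41 SE (limma adjusted p = 0.309). IC, the acid-secreting and base-secreting intercalated cells, were 1.46% and 2.18% against 0.792% and 0.803%, also -0.78 (SE 0.49, limma adjusted p = 0.369). All 4 IC shares lay below the control minimum of 2.66%.

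The clusters beyond the proximal tubule were also set against each other. LOH was 50.8%, 49.0%, 51.8% and 50.0% of the distal tubule in IRF8, IRF10, IRF9 and IRF12, a difference of 0.04 with a 95% interval from -0.55 to 0.63. DCT was 67.1% and 77.3% of DCT, PC and IC together in IRF8 and IRF10, against 79.5% and 77.6% in IRF9 and IRF12, higher in both IRI long libraries by 0.331 percentage points at the closest (difference 0.32, interval -0.53 to 1.18). IC over PC differed by -0.02, with an interval from -1.28 to 1.23 that allows a difference in either direction. With the PT S3 cells taken out of the compartment, the mean IRI long shares of LOH, DCT, PC and IC were 0.790, 0.825, 0.593 and 0.587 times the IRI short shares, and each still lay below both IRI short libraries. Among cells of the same class in both annotations LOH and PC remained below without overlap, whereas DCT and IC overlapped.

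**Figure D4:**
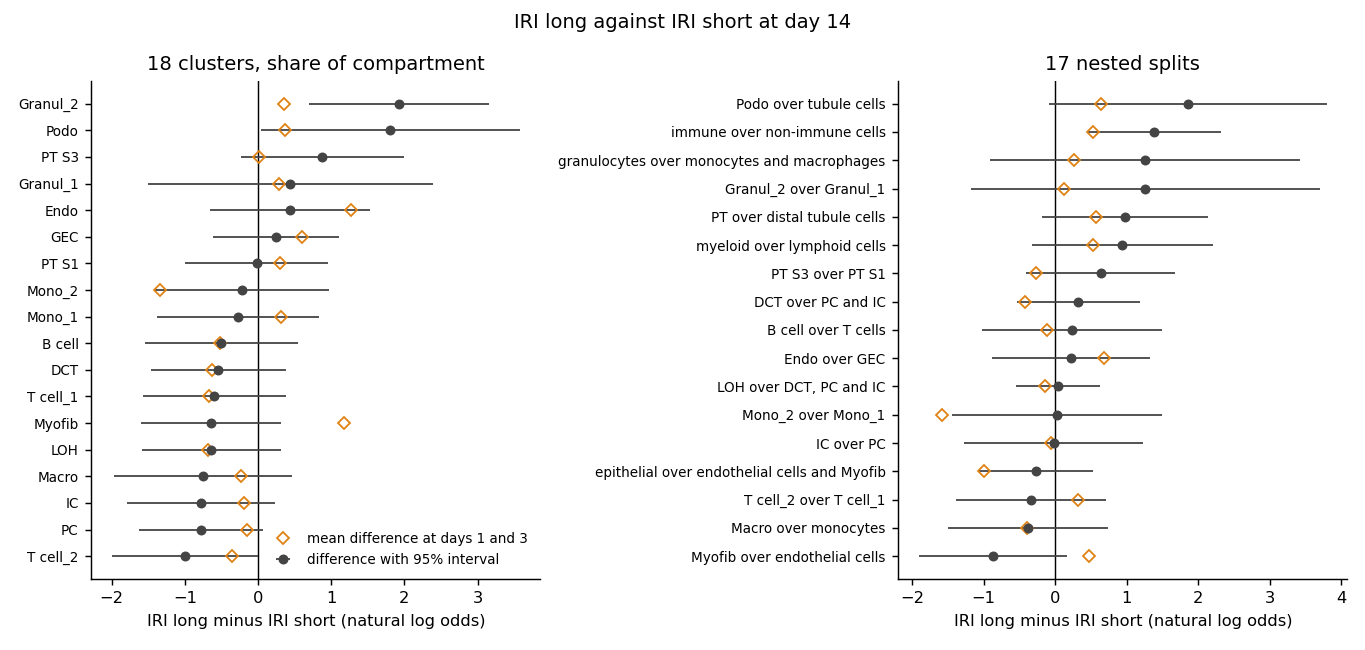
Difference between IRI long and IRI short at day 14 in natural log odds for the 18 clusters (left) and 17 splits (right), as black points with 95% intervals from limma, and the mean of the differences at days 1 and 3 as orange diamonds. Granul_2 and Podo lie farthest to the right among clusters. The diamonds of Myofib, Mono_1 and PT S1 lie on the other side of 0 from their day 14 points, as do those of several splits. The day 14 intervals of all of these include 0.

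Podocytes, the filter cells of the glomerulus, were few. Podo counted 5 cells of 1923 in IRF8 and 3 of 6335 in IRF10, against 11 of 1516 in IRF9 and 10 of 1370 in IRF12. The shares were 0.260% and 0.0474% against 0.726% and 0.730%, and the intervals of IRF8 and IRF9 overlapped. The difference was 1.81 ± 0.85 SE (unadjusted p = 0.0459, limma adjusted p = 0.301), and against the tubule cells it was 1.85 ± 0.91 SE (limma adjusted p = 0.393). The 29 podocytes of the 4 libraries limit both values, and in the controls Podo reached 0.347%.

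Endothelial shares were above the controls in all 4 libraries, and their difference by ischemia time depended on which PT S3 cells were counted. GEC, the glomerular endothelial cells, were 12.0% and 11.3% in IRF8 and IRF10 against 17.2% and 12.0% in IRF9 and IRF12, and the closest values lay 0.0313 percentage points apart. Endo, the other endothelial cells, were 1.98% and 1.07% against 3.23% and 1.53% and overlapped. With the PT S3 cells taken out of the compartment both clusters were higher in both IRI long libraries, GEC 1.62 times and Endo 1.94 times on average. Among cells of the same class in both annotations they were higher without overlap: GEC averaged 11.7% ± 0.6 after short and 20.6% ± 1.9 after long ischemia, and Endo 1.59% ± 0.65 and 3.30% ± 0.57 (SD, n = 2 each). This count is not independent of the one before, since it leaves out many of the same PT S3 cells. In IRF12 it kept 88 of 673 PT S3 cells and 159 of 165 GEC cells. Myofib, the matrix-forming myofibroblasts, counted 7 and 10 cells in the IRI short and 1 and 2 cells in the IRI long libraries. Those were 0.364% and 0.158% of the non-immune cells against 0.0660% and 0.146%.

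Composition was also compared over all clusters of a compartment. The Bray-Curtis distance of the immune shares (the share of cells placed differently) was 14.8% between the IRI short libraries and 13.7% between the IRI long libraries, and 26.0% to 39.3% between groups. For the non-immune shares it was 5.23% within IRI short, 25.1% within IRI long and 15.9% to 32.4% between groups. By these names IRF9 was closer to either IRI short library than to IRF12 in its non-immune cells. Among cells of the same class in both annotations this was not so: the non-immune distance was 6.81% within IRI short, 9.43% within IRI long and 14.7% to 16.7% between groups. The immune distances between groups were 26.7% to 37.7% in those cells, larger than both within groups.

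Whether the difference at day 14 departed from that at days 1 and 3 was tested as an interaction. Limma passed none of 18 clusters (0%) and none of 17 splits (0%) after adjustment, and before it 2 clusters and 1 split. Granul_2 had differed by 0.39 at day 1 and 0.33 at day 3, against 1.92 at day 14 (interaction 1.56 ± 0.72 SE, limma adjusted p = 0.379). In the 8 libraries of days 1 and 3 its share ran from 7.73% to 16.6%, below both IRI long libraries of day 14. Macro stood at 24.6% ± 0.5 after short and 20.8% ± 0.5 after long ischemia at day 3 (SD, n = 2 each), and at 23.3% ± 1.3 and 12.6% ± 1.6 at day 14. Its interaction was -0.51 ± 0.71 SE (limma adjusted p = 0.730), and the granulocytes were counted in these shares.

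The higher Myofib share after long ischemia at days 1 and 3 was not seen at day 14. It had been 2.08% ± 0.59 against 0.722% ± 0.075 at day 1, and 7.63% ± 2.49 against 2.10% ± 0.19 at day 3 (SD, n = 2 each). At day 14 the log odds differed by -0.64 ± 0.46 SE (limma adjusted p = 0.382), with 1 and 2 Myofib cells in the IRI long libraries. The day 14 means, 0.106% after long and 0.261% after short ischemia, lay within the control range of 0.0862% to 0.354%. Single libraries did not all do so: IRF9 at 0.0660% lay below that range and IRF8 at 0.364% above it. These counts are too low to establish an opposite difference at day 14. The interaction was -1.82 ± 0.56 SE with a limma adjusted p of 0.0733, 0.0455 without IRF10 and 0.0161 in the 12 IRI libraries alone. In the second annotation, which has no cluster of that name, no cluster passed. LOH differed by similar amounts on each day, by -0.71, -0.66 and -0.64 at days 1, 3 and 14.

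**Figure D5:**
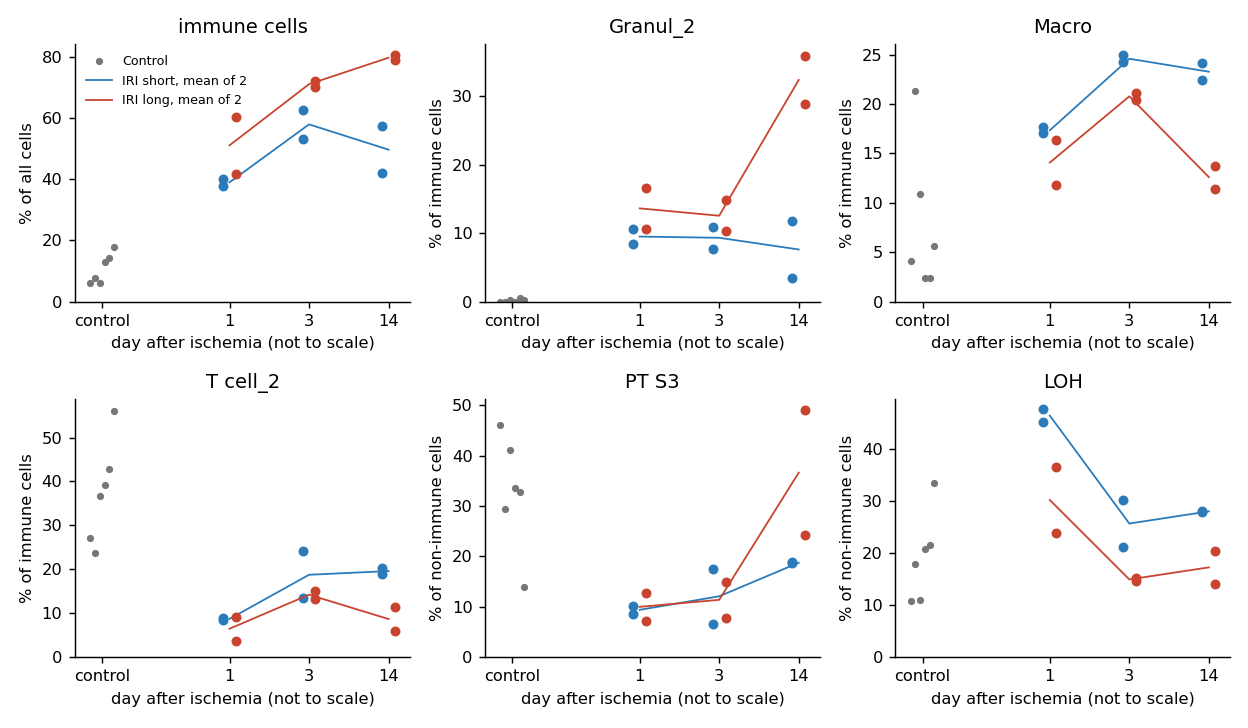
Shares by day (days not drawn to scale) for immune cells (% of all cells), Granul_2, Macro and T cell_2 (% of immune cells), and PT S3 and LOH (% of non-immune cells), with 1 point per library, lines through the means of 2 libraries and controls in grey. Granul_2 at day 14 after long ischemia, 28.9% and 35.9%, lies above every other library.

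Position in the UMAP added little. In 14 clusters with at least 20 cells in each of the 4 libraries, the mean positions of the libraries were compared within and between groups. Only in Macro did every distance between groups (0.160 to 0.261 UMAP units) exceed both distances within groups (0.0434 and 0.0783), and these were small beside the spread of the cells of 1 library (1.59). PT S3 of IRF12 lay 1.87 units from that of IRF9 and up to 2.87 from the IRI short libraries. Granul_2 lay 1.56 units apart in the IRI short libraries and 0.0232 in the IRI long libraries. Of barcodes, 5 to 25 were shared by any pair of the 4 libraries, at most 0.355% of the smaller library.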

How the data were processed

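Kidneys were measured by droplet scRNA-seq. Per the labels and methods, the authors aligned reads to mm10 (GRCm38) with Cell Ranger, filtered cells with Seurat, integrated batches with LIGER, removed doublets with DoubletFinder and named clusters by hand. The deposited files used here hold, per cell, a cluster name, a group with day, and UMAP coordinates, which are scores without unit. No gene counts were used, so marker genes, depth per cell and sequences were not analysed here. The 18 library prefixes appear in 0 sample titles. Groups came from each cell's deposited group.

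Cells were counted per cluster and library. Log odds of shares, with 0.5 cells added, were fitted with limma 3.58.1 (R 4.3.3) on 7 group means over 18 libraries, p-values being adjusted by Benjamini-Hochberg over 18 clusters or 17 splits, with a threshold of 0.05. The scripts were tested on simulated data. The spread between libraries was a set value there, not estimated from these libraries, so the power in these data was not measured. The alternative test was a quasi-binomial model. Full statistics are given for the 4 clusters per compartment and 5 splits that differed most. The clusters, splits and comparisons were chosen with earlier results of these data known.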

Additional observations from a re-analysis of the deposited data

Results flagged for a closer look

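The names given to cells by the second annotation lie outside the main comparison, which counts PT S3 cells whatever their second name. The level of neutrophil names among PT S3 cells in both IRI long libraries of day 14 lay above that of the controls. The value was 44.1% of the PT S3 cells in IRF12 (297 of 673) and 7.65% in IRF9 (28 of 366), against at most 0.0878% in the 6 control libraries. The cells with neutrophil names in IRF12 came to 3917 in all, of which 3603 were granulocytes in the first annotation and 297 PT S3. The difference between the groups in this share was not tested.

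Among the 17 clusters with a cell in a control library, 0 had a control library that stood apart from the other 5 by Dixon's test. Groups of 2 libraries are too small for it.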

How the results depend on the processing

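No paired analysis was possible because the library prefixes carry no replicate number and match no sample title. For the clusters at day 14 the count of 0 became 1 with the arcsine square root, with 1 cell added, with the 12 IRI libraries only and with adjustment within each compartment (Granul_2 each time), 2 with the 4 day 14 libraries alone, 3 in the quasi-binomial model and 6 for shares of all cells of the library (Granul_2, and DCT, IC, LOH, Myofib and PC). Leaving out 1 library gave 0 to 1, the latter without IRF8. For the splits at day 14 the count of 0 became 1 with the arcsine square root, without T cell_2, and with cells of the same compartment or of the same class in both annotations (immune over non-immune cells each time), 3 with the 4 day 14 libraries alone, and 4 with the 12 IRI libraries only and in the quasi-binomial model. It was 0 without each library in turn. For the interaction with days 1 and 3, the count of 0 clusters became 2 with the arcsine square root and 1 with the 12 IRI libraries only, with shares of all cells, in the quasi-binomial model and with adjustment within each compartment, with 0 to 1 when 1 library was left out. The count of 0 splits became 1 in the quasi-binomial model.

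Of 192 values of the 13 named clusters and splits under alternatives, 164 kept direction and side of the threshold, 26 newly passed it and 2 reversed: PT S3, to -0.31 as a share of all cells and to -0.22 among cells of the same class in both annotations. Matching the annotations was chosen after seeing the data, and the cause of these changes was not tested. Counting clusters with at least 50 cells left 1 in the UMAP comparison. Clusters with few cells (Mono_2, Podo, Myofib) limit the comparison by depth.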
